A study of Mus musculus with 6 samples.

Results

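Gpnmb, Trem2, Tyrobp, Spp1, Cd9 and Fabp5, genes known from lipid-associated macrophages, and Mitf, Tfeb, Tfe3 and Tfec, which encode the MiT/TFE transcription factors, were followed in macrophages captured from a lymphoma and from normal germinal centers. A member was measured where the array annotation gave it a probe set naming no other gene. By this rule 9 of the 10 genes were measured, out of 19938 genes in all, through 11 of 28944 probe sets. Spp1, which encodes the secreted protein osteopontin, had no such probe set in the annotation used here, and its level is not reported.

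Starry-sky tumor-associated macrophages (SS-TAMs) were cut by laser from tumors of BL2, a line of human Burkitt's lymphoma cells, after staining for CD68. The tumors were grown under the skin of female BALB/c SCID mice, a strain without mature lymphocytes of the T and B lineages, and were taken at 1.44 cm2. Germinal center macrophages (GCMs), which engulf dying B cells in normal lymphoid tissue, were cut from female CSF1R EGFP transgenic BALB/c mice that had received 2 doses of sheep red blood cells. No agent was given to the tumor-bearing mice other than the injected BL2 cells, per the labels, and mice of both groups were 6 to 12 weeks old. The tissue label and the protocol name the spleen as the source of GCMs, whereas the source label names lymph nodes. The EGFP of these mice is driven by the promoter of Csf1r, and the groups therefore differed in host strain, in tissue and in how the cells were chosen, so that none of these can be told apart from the tumor itself. Each of the 6 arrays (3 SS-TAM and 3 GCM) came from 1000 cells of a separate mouse. Cd68 was used to choose the SS-TAMs, and neither it nor Csf1r is a finding between the groups.

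Lipid-associated macrophages arise where macrophages take up much lipid or many dying cells, as in obese fat, atherosclerotic plaques and tumors. TREM2 is a surface receptor for lipids and apoptotic cells, and it signals through the adaptor DAP12, the product of Tyrobp. GPNMB is a membrane glycoprotein of macrophages and pigment cells, CD9 is a tetraspanin, and FABP5 carries fatty acids in the cytosol. The MiT/TFE factors bind short CACGTG-type sites in the promoters of lysosome and autophagy genes. They are held in the cytoplasm by phosphorylation when nutrients are plentiful, so their activity is set largely after the protein has been made and need not follow their mRNA. Gpnmb is known as a target of MITF in pigment cells and in osteoclasts.

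Levels are array intensities on a linear scale, without a unit, as deposited, and the median intensity of an array was 6.1 to 6.5. No detection calls were available, and a mean level at or below 8.125, a bound set from the highest array median, is called near the median. Differences are log2 intensities of SS-TAMs minus those of GCMs, and a gene was called at an adjusted p under 0.05 from limma with Benjamini-Hochberg adjustment over the 19938 genes. Such p-values describe the spread between these animals. Of the 9 members measured, 4 rose in SS-TAMs (Gpnmb, Trem2, Tyrobp and Fabp5), none fell and 5 did not pass the test, whereas 5.16% of all genes were called higher and 4.74% lower; Tyrobp and Fabp5 were lower instead when arrays were scaled to core macrophage markers. All 4 called members were among the 5 lipid-associated genes measured, and none was among the 4 MiT/TFE factors. The median log2 difference was 1.00 over the lipid-associated genes, 0.19 over the MiT/TFE factors and 0.04 over all genes tested.

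**Figure D1:**
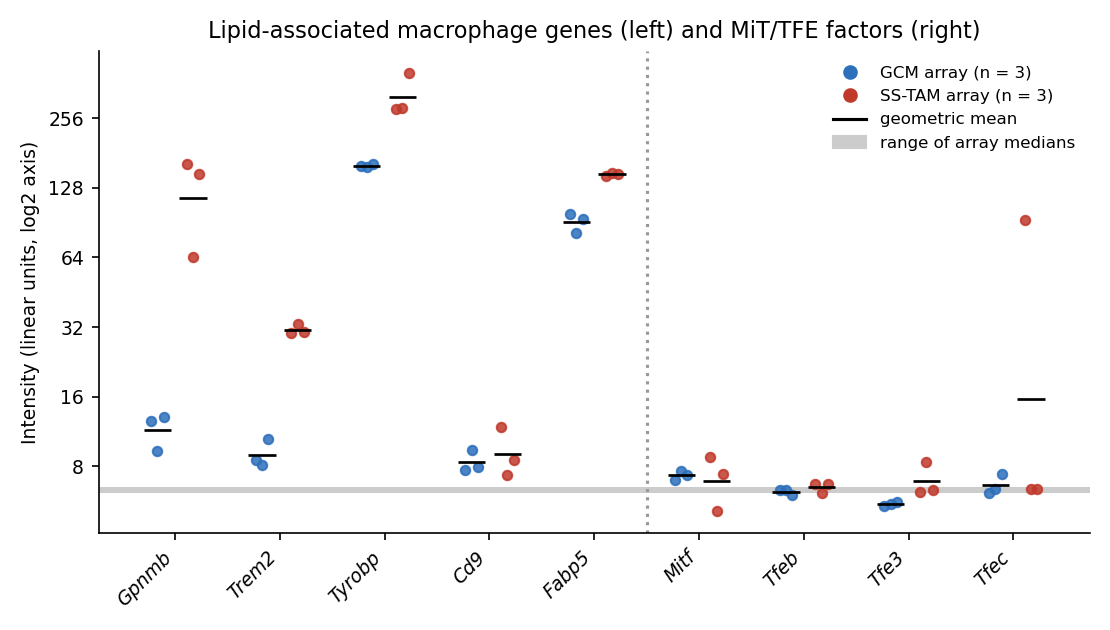
Intensity (linear units on a log2 axis) of the 9 measured members on each of 3 GCM and 3 SS-TAM arrays; points are arrays, bars are geometric means, and the gray band is the range of array medians. Gpnmb, Trem2, Tyrobp, Fabp5 and Tfe3 lay higher on every SS-TAM array than on any GCM array, as did 18.5% of all genes. Mitf, Tfeb and Tfe3 lay near the array medians, and Tfec stood out on SS-TAM replicate 1 only.

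As a check on the captured cells, 10 of 19 core macrophage markers other than Cd68 and Csf1r were higher in SS-TAMs and none was lower. Their intensities summed to between 2090 and 2825 for each SS-TAM array and to between 910 and 1048 for each GCM array. Adgre1, the gene of F4/80, was near the median on all GCM arrays (4.9 to 5.1) and at 68.9 to 106 on SS-TAM arrays. Cd14 and Itgam, which many macrophages express, were near the median in both groups. Aif1, Timd4, Spi1 and Lyz2 were above it in both groups and were not called (log2 differences -0.09, 0.06, 0.29 and 0.57). The markers therefore did not rise as one. T cell markers, of which 6 of 10 were lower in SS-TAMs, summed to between 132 and 166 there and to between 1103 and 1482 in GCMs. Of 10 fibroblast and pericyte markers 3 were higher in SS-TAMs; their sum was carried mostly by Sparc, and without it was 304, 160 and 180 on SS-TAM replicates 1, 2 and 3 and between 139 and 158 in GCMs. Of 9 dendritic cell markers 4 were lower in SS-TAMs (sums of 82.1 to 105 against 149 to 231), as were 3 of 7 follicular dendritic cell markers (54.1 to 54.6 against 208 to 484). In the B cell list Cd79a and Ms4a1 fell and 6 genes were not called (79.5 to 92.5 against 123 to 281). Sums of the plasma cell list were 52.3 to 55.8 against 81.3 to 231. There Jchain fell (log2 difference -3.13), Xbp1 rose (0.29) and 4 genes were not called. The lymphoma cells beside SS-TAMs were human, and how far these mouse arrays read their RNA was not tested. All 4 called members moved in the same direction as the 10 called core macrophage markers, and the part of cell composition in the results was not tested. In bulk RNA of this kind, fewer cells of a type and less RNA per cell cannot be told apart.

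The largest difference among the members was in Gpnmb, which ranked 10 among all genes by its log2 difference. Its intensity was 163, 64.3 and 147 on SS-TAM replicates 1, 2 and 3, and 12.6, 9.3 and 13 on the GCM arrays. The groups did not overlap (all SS-TAM arrays lay above all GCM arrays for 18.5% of genes), although SS-TAM replicate 2 was well below the other two. The SS-TAM mean was 125 ± 53.1 and the GCM mean 11.6 ± 2.03 (SD, n = 3). The ratio of geometric means was 10.0-fold, a log2 difference of 3.33 (SE 0.375, 95% interval 2.41 to 4.25, adjusted p = 0.0064 from limma). Leaving out any 1 array gave 3.08 to 3.75, and Gpnmb was called each time. Of 6 pigment cell markers 1 was higher in SS-TAMs (Mlana, log2 difference 1.31) and none was lower, and the part of pigment cells in the level of Gpnmb was not tested. Gpnmb, like Trem2, is among the genes the study itself picked from these arrays, so its rise here is not independent evidence.

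The 250 bases before the start of Gpnmb are shown in full, because Gpnmb had the largest difference of the members and is known as an MiT/TFE target (RefSeq start, GRCm38.p6 chr6:49036268-49036517, plus strand, 5′ to 3′).
Gpnmb: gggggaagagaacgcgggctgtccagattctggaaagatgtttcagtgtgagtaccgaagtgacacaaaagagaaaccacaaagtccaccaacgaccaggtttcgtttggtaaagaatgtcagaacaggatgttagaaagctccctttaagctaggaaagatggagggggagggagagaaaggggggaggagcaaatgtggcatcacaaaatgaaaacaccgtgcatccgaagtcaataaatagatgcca
This stretch held none of the 3 motifs searched on both strands. The motifs were CACGTG, the longer form TCACGTG, which contains the first, and as a related form TCATGTG. Among 14 promoters of the 8 members listed in the RefSeq promoter table, each from 250 bases before to 50 bases after a start, none held any of them. Of all 32851 promoters in that table, 7.15% held CACGTG, 3.77% held TCACGTG and 3.77% held TCATGTG. A missing motif says only that these letters are not in this window. Tyrobp and Fabp5 were not matched to a promoter.

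Trem2 rose with little spread between arrays. Its intensity was 30.2, 33.1 and 30.4 on the SS-TAM arrays and 8.5, 8.1 and 10.5 on the GCM arrays. The groups were clearly apart, and the highest SS-TAM array was only 1.10-fold above the lowest. Means were 31.2 ± 1.62 and 9.03 ± 1.29 (SD, n = 3), a ratio of 3.48-fold and a log2 difference of 1.80 (SE 0.111, 95% interval 1.53 to 2.07, adjusted p = 0.0012 from limma). It was called whichever array was left out (1.72 to 1.91). GCM levels of Trem2 lay close to the array medians, at 8.1 on replicate 2.
Its upstream bases are given for comparison with Gpnmb, as the receptor of the same group (GRCm38.p6 chr17:48346151-48346400, plus strand, 5′ to 3′).
Trem2: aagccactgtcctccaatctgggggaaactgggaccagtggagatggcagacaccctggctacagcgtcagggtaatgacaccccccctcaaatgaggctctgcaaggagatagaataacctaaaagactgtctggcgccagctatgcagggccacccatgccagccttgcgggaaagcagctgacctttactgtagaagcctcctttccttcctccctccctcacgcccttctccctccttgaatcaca

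Tyrobp, the gene of the adaptor that carries the TREM2 signal, rose 1.99-fold. Its intensity was 280, 285 and 403 on the SS-TAM arrays and 159.7, 157.4 and 161.8 on the GCM arrays. The 3 GCM arrays were nearly equal, and all SS-TAM arrays lay above them. The log2 difference was 1.00 (SE 0.149, 95% interval 0.63 to 1.36, adjusted p = 0.015 from limma). The call was lost without GCM replicate 1, 2 or 3 (adjusted p = 0.060, 0.074 and 0.065 from limma), at log2 differences of 0.98 to 1.00. In the same settings the number of all genes called higher fell from 1028 to 348, 271 and 303, so such a loss was not particular to Tyrobp. Without any 1 SS-TAM array the call of Tyrobp was kept (0.82 to 1.09).

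Fabp5 rose 1.61-fold. Its brighter probe set was at 144, 149 and 148 on the SS-TAM arrays and at 98.6, 81.7 and 94.1 on the GCM arrays. SS-TAM arrays were within a few units of each other, and no GCM array reached them. The log2 difference was 0.69 (SE 0.0826, 95% interval 0.48 to 0.89, adjusted p = 0.0077 from limma), and it was called whichever array was left out (0.61 to 0.74). The other probe set of Fabp5, which carries the same gene annotation, had 112, 111 and 112 in SS-TAMs and 69.2, 54.5 and 65.3 in GCMs, a log2 difference of 0.83. Both probe sets gave the same direction, and whether they also detect copies of Fabp5 elsewhere in the genome could not be told from the annotation.

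Cd9 did not pass the test. Its intensity was 11.8, 7.3 and 8.5 on the SS-TAM arrays and 7.7, 9.4 and 7.9 on the GCM arrays, and the groups overlapped. The log2 difference was 0.12 (95% interval -0.35 to 0.58, adjusted p = 0.72 from limma), and it was -0.08 without SS-TAM replicate 1.

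The 4 MiT/TFE factors were mostly near the array medians, and none was called. Mitf, the factor of pigment cells and osteoclasts, was at 8.8, 5.1 and 7.4 in SS-TAMs and 7, 7.6 and 7.3 in GCMs, with a log2 difference of -0.08 (95% interval -0.56 to 0.41, adjusted p = 0.83 from limma). Without SS-TAM replicate 2 its log2 difference was 0.15, and its other probe set was dimmer, at 3.2 to 3.9. Tfeb, widely known as a regulator of lysosome genes, was at 6.7, 6.1 and 6.7 against 6.3, 6.3 and 6 (log2 difference 0.07, 95% interval -0.09 to 0.22, adjusted p = 0.52). For both genes the groups overlapped, and with the arrays as deposited the intervals held no difference of 2-fold in intensity. At levels this near the array medians, and without detection calls, the intervals do not bound a difference in mRNA. Scaled to the core macrophage markers, which moves the median of all genes down, Mitf was at -1.70 and Tfeb at -1.56, and both were called lower.

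Tfe3, whose product acts alongside TFEB, was at 6.2, 8.3 and 6.3 on the SS-TAM arrays and at 5.4, 5.5 and 5.6 on the GCM arrays. Every SS-TAM array lay above every GCM array, with replicate 2 the highest, yet all but that one were near the median. The log2 difference of 0.32 did not pass the test (SE 0.122, 95% interval 0.02 to 0.62, adjusted p = 0.17 from limma). Without SS-TAM replicate 2 it was 0.18 (adjusted p = 0.069).

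Tfec, the member of the family expressed mainly in macrophages and osteoclasts, had a pattern of its own. Its intensity was 93.2 on SS-TAM replicate 1 and 6.4 on each of replicates 2 and 3, and GCM arrays were at 6.1, 6.4 and 7.4. All arrays but 1 were thus near the median. The log2 difference of 1.24 had an SE of 1.06 and did not pass the test (95% interval -1.37 to 3.85, adjusted p = 0.49 from limma). Without SS-TAM replicate 1 it was -0.05 (adjusted p = 0.77), so the difference rested on that array.

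The level of Tfec on SS-TAM replicate 1 was 12.6-fold above the highest of the other 5 arrays, which was the largest excess of any gene on any single array. The next on the same array were Jag1, a Notch ligand, at 41.9 against at most 5.1 elsewhere, the sialoadhesin gene Siglec1 at 71.2, and the interferon-induced gene Ifit3 at 117 (genes named after their values were seen). SS-TAM replicate 1 had 61 genes at least 2-fold above all other arrays, against 3 and 8 on SS-TAM replicates 2 and 3 and 45, 8 and 0 on the GCM arrays. At 8-fold or more there were 2 genes on SS-TAM replicate 1 and none on any other array. The sum of fibroblast and pericyte markers was also highest on this array, with Lum, a matrix proteoglycan gene, at 47.6 against 10.8 and 12.7 on the other SS-TAM arrays. Acta2 and Fap of that list were instead lowest on it among the SS-TAM arrays. Core macrophage markers other than Cd68 and Csf1r also had their highest sum there, at 2825 against 2090 and 2570 on SS-TAM replicates 2 and 3. The part of these in the level of Tfec was not tested.

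**Figure D2:**
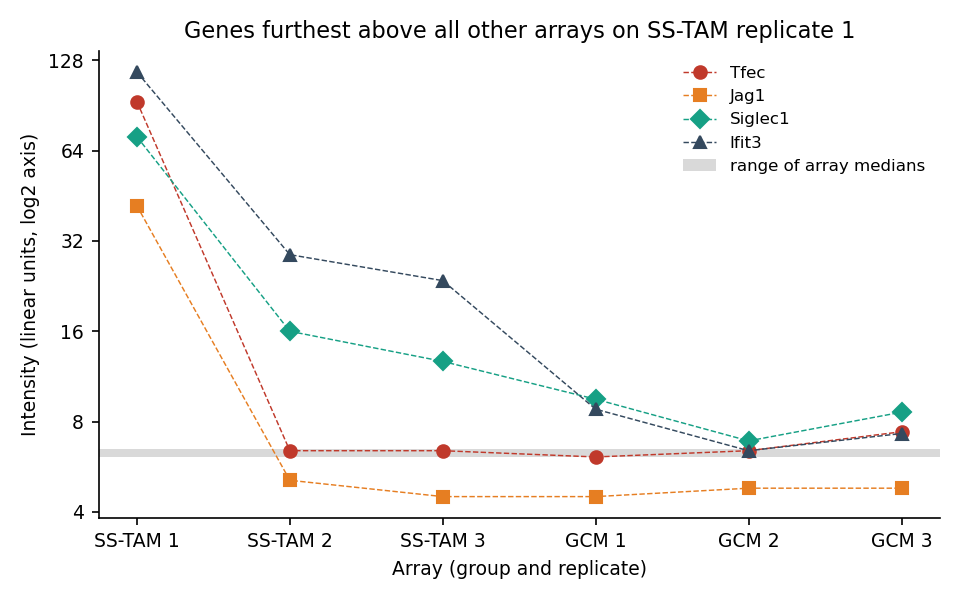
Intensity (linear units on a log2 axis) on each of the 6 arrays for the 4 genes with the largest excess on SS-TAM replicate 1 over all other arrays; each point is 1 array, and dashed lines join points of a gene only as a guide. Tfec was at 93.2 on SS-TAM replicate 1 and at 6.1 to 7.4 on the other arrays, within or just around the gray band of array medians.

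The 250 bases before the RefSeq start of Tfec are printed because its level on 1 array was the most extreme of the members (GRCm38.p6 chr6:16898442-16898691, minus strand, 5′ to 3′ along the gene). They hold none of the 3 motifs.
Tfec: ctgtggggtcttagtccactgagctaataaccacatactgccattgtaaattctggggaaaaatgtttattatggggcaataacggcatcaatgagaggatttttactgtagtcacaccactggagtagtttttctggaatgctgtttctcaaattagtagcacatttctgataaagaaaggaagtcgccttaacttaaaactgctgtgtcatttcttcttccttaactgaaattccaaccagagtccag

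Other genes of lipid-associated macrophages, a list of 25, were called higher in 17 cases and lower in 1, with a median log2 difference of 2.38. The largest rises were in Lgmn, a lysosomal protease (12.6-fold, log2 difference 3.65), and Lpl, lipoprotein lipase (log2 difference 3.50, from 6.13 ± 0.764 to 70.6 ± 17.5, SD, n = 3). The GCM level of Lpl was near the median, so its 11.3-fold ratio depends on a level at the low end of the scale. They were followed by Lipa, the lysosomal acid lipase (2.76), and Ctsd, the protease cathepsin D (2.67). Plin2, which coats lipid droplets, the fatty acid transporter Cd36, the cholesterol exporter Abca1 and Lgals3, or galectin-3, rose by between 2.38 and 2.56 on the log2 scale. Apoe, the gene of apolipoprotein E, was at 743, 460 and 752 in SS-TAMs and 352, 126 and 240 in GCMs, and its log2 difference of 1.53 did not pass the test (adjusted p = 0.075 from limma). It passed when dim genes were left out, under quantile normalization and with the replicate number as a block (adjusted p = 0.042, 0.0088 and 0.026). Of the genes of this list called higher, Ctsd, Ctsb, Ctsl, Cd36, Lgals3, Abca1, Axl, Igf1 and Timp2 were also picked from these arrays by the study, so the count is not independent evidence. The one fall was in Cst7, which encodes the protease inhibitor cystatin F and is often listed beside Trem2 and Gpnmb. It was at 13.5 to 14.4 in SS-TAMs and 30 to 33.6 in GCMs (log2 difference -1.19, adjusted p = 0.00093 from limma). The T cell, dendritic cell and follicular dendritic cell markers given above were also lower in SS-TAMs, and their part in the fall of Cst7 was not tested. Itgax, another common marker of these cells, was at 7.2 to 8.5 and 7.5 on all GCM arrays.

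The 3 SS-TAM arrays ordered these genes in a repeated way, which Gpnmb followed and the other called members did not. Of the 17 higher genes, 16 were lowest on SS-TAM replicate 2, as was Gpnmb, at 0.85 below its own SS-TAM mean on the log2 scale. Among all genes called higher, 44.7% were lowest on replicate 2, and of the 12 core macrophage markers called higher (Cd68 and Csf1r included) 9 were. Trem2 and Fabp5 were highest on replicate 2, and Tyrobp was highest on replicate 3. Genes captured together on an array are not independent, and these counts are a description.

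**Figure D3:**
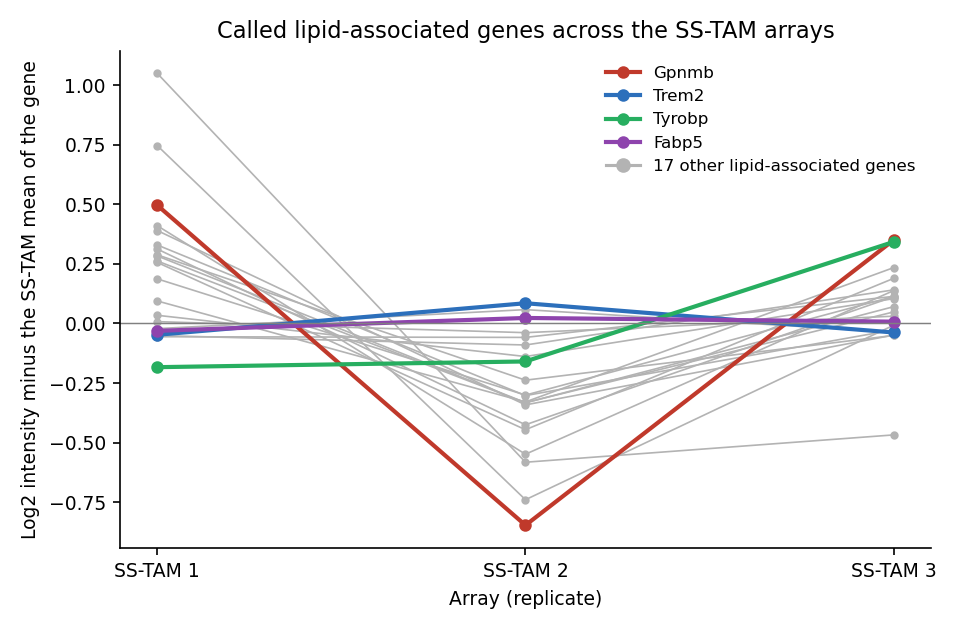
Log2 intensity minus the SS-TAM mean of each gene on the 3 SS-TAM arrays, for the 4 called members (colored) and the 17 other lipid-associated genes called higher (gray); each point is 1 array. Gpnmb and 16 of the gray genes were lowest on replicate 2, of which 3 (Cd63, Igf1 and Atp6v0d2) were within 0.1 of their means there, whereas Trem2 and Fabp5 were highest on it.

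The genes whose profiles over the 6 arrays were most like that of Gpnmb were Lpl, the Fc receptor gene Fcgr4 and Pltp, a phospholipid transfer protein, with root mean square differences between centered log2 profiles of 0.24, 0.26 and 0.28. For Trem2 they were the proton pump gene Atp6v1b2, the ficolin gene Fcna and the unconventional myosin gene Myo10 (0.085, 0.14 and 0.16). All 6 were called higher in SS-TAMs, which follows from choosing them for likeness to Gpnmb and Trem2 and is not a separate result.

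Partners of TREM2 and DAP12 mostly did not pass the test, as was so for genes in general. Of 20 genes measured, 2 rose, 1 fell and 17 were not called, with a median log2 difference of 0.05. The shares over all genes were 5.16% higher and 4.74% lower, so these counts are not read as a trait of the list. Ms4a7, a membrane protein of macrophages, rose from 53.2 ± 8.60 to 283 ± 49.5 (SD, n = 3; log2 difference 2.41, adjusted p = 0.0015 from limma). Grb2, a signaling adaptor, rose by 0.96, and lost its call without any 1 of the SS-TAM arrays or without GCM replicate 2 or 3 (adjusted p = 0.053 to 0.12). Hcst encodes DAP10, an adaptor that works beside DAP12 in macrophages and is also abundant in T and NK cells. It was at 53.2, 66.4 and 49.9 in SS-TAMs and 97.7, 142.9 and 135 in GCMs, a fall of 1.14 on the log2 scale whose call was lost without SS-TAM replicate 1 or 3 and also without replicate 2 or 3 of the GCM arrays (adjusted p = 0.058, 0.062, 0.075 and 0.076). Beside it, T cell markers were 1103 to 1482 in sum on GCM arrays and 132 to 166 on SS-TAM arrays, while 7 NK cell markers summed to between 50 and 57.5 in GCMs and between 47.5 and 52.9 in SS-TAMs, with Eomes called lower and the defining gene Ncr1 near the median throughout (3.4 to 5). The part of these cells in the difference was not tested. Syk, the kinase that binds phosphorylated DAP12, was at 9.2, 10.8 and 14.8 against 10, 6.9 and 6.2 (log2 difference 0.59, adjusted p = 0.20), and Plcg2, a phospholipase downstream of it, had a log2 difference of -0.29 (adjusted p = 0.54). Tyrobp and Trem2 were therefore called higher while their kinase was not, and the difference between these genes was not tested.

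Genes that control where MiT/TFE proteins reside in the cell were mostly not called, and the few calls went in both directions. Of 26 measured, 4 rose, 2 fell and 20 were not called (median log2 difference 0.12). Of all genes, 5.16% were called higher and 4.74% lower, so the few falls are not read as a trait of the list. Mcoln1, the lysosomal calcium channel whose opening releases TFEB to the nucleus, rose from 9.10 ± 0.985 to 26.7 ± 11.4 (SD, n = 3; log2 difference 1.48, adjusted p = 0.033 from limma). Its call was lost without SS-TAM replicate 3 or any 1 GCM array (adjusted p = 0.083 to 0.13). Fnip1 and Fnip2, partners of folliculin in the arm that controls TFE3 and TFEB, rose by 0.89 and 0.81, the GCM mean of Fnip2 (5.33) being near the median. Rragd, a Rag GTPase on the lysosome surface, rose by 0.42, and not without SS-TAM replicate 1 (adjusted p = 0.0504) or any 1 GCM array (adjusted p = 0.076 to 0.093). Its GCM mean of 6.43 was also near the median. Lamtor2, a scaffold of the Rag GTPases, and Xpo1, which exports TFEB from the nucleus, fell by 1.44 and 1.12 on the log2 scale. The call of Lamtor2 was lost without GCM replicate 1 or 3 (adjusted p = 0.063 and 0.080). Flcn, the gene of folliculin, was at 8.8, 7.6 and 7 against 6.7, 6.7 and 6.6 (log2 difference 0.22, adjusted p = 0.20). The list had 2 genes higher and 1 or 2 lower when 1 GCM array was left out.

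In a list of lysosome and autophagy genes known as MiT/TFE targets, many lysosome genes were called higher. The factors themselves were not called, and the difference between the lists was not tested. Of 29 measured, 16 rose, none fell and 13 were not called, with a median log2 difference of 0.88. Psap and Lamp2, among those that rose, were also picked from these arrays by the study, so the count is not fully independent evidence. The largest rises were in Gla (2.73), Hexa (2.66), Ctsa (2.50) and Gusb (2.37), which encode lysosomal enzymes that break down glycolipids and sugar chains, or, in the case of Ctsa, protect other such enzymes. Lamp1, a main protein of the lysosome membrane, was at 274, 167 and 206 in SS-TAMs and 84.9, 85 and 93.3 in GCMs. The autophagy genes Map1lc3b and Sqstm1, among the best-known TFEB targets, had log2 differences of 0.23 and 0.58 and did not pass the test (adjusted p = 0.50 and 0.34 from limma). Gabarap, Uvrag, Wipi1, Vps11 and Vps18, the autophagy and traffic genes also listed, were not called either. Uvrag lay lower on every SS-TAM array (18.7 to 30.9) than on any GCM array (31.1 to 36.6). Without GCM replicate 1, 2 or 3 the number of this list called higher was 10 in each case, while over all genes it fell from 1028 to 348, 271 and 303. Many but not all core macrophage markers rose with this list, as given above, and the part of macrophage content was not tested.

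The stretches below carry TCACGTG, the core of the site that MiT/TFE factors recognize, and come from the 8 genes of these lists that rose in SS-TAMs and hold the motif before their start (1 stretch for each). Letters in capitals are this motif or its reverse complement, and in some genes the pair overlap by all but 1 letter. All lie before the RefSeq start, in GRCm38.p6, 5′ to 3′ along the gene.
Gla, chrX:134601206-134601253, minus strand: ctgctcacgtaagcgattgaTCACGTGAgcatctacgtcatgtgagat
Ctsa, chr2:164833740-164833772, plus strand: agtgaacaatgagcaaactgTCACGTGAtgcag
Lamp1, chr8:13159079-13159160, plus strand: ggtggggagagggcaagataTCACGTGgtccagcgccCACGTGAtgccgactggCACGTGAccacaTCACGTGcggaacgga
Atp6v1a, chr16:44139364-44139411, minus strand: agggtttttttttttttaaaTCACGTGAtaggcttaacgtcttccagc
Mcoln1, chr8:3500453-3500500, plus strand: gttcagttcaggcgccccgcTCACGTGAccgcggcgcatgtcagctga
Fnip1, chr11:54438084-54438130, plus strand: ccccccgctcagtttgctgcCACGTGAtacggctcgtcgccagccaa
Ctsd, chr7:142387899-142387946, minus strand: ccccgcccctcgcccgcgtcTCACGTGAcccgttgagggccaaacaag
Lgmn, chr12:102439116-102439162, minus strand: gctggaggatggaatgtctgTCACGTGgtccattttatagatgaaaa
The motif was in 10 of 25 lysosome and autophagy targets with a promoter in the table (40%), 7 of 25 regulators (28%) and 4 of 20 other lipid-associated genes (20%), against 4.29% of all genes. Genes of the target list are known partly because they hold such sites, so this share is no finding about these cells. Within that list the motif was in 5 of 13 genes that rose and in 5 of 12 that were not called. A match is a stretch of letters, not evidence that a factor was bound.

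**Figure D4:**
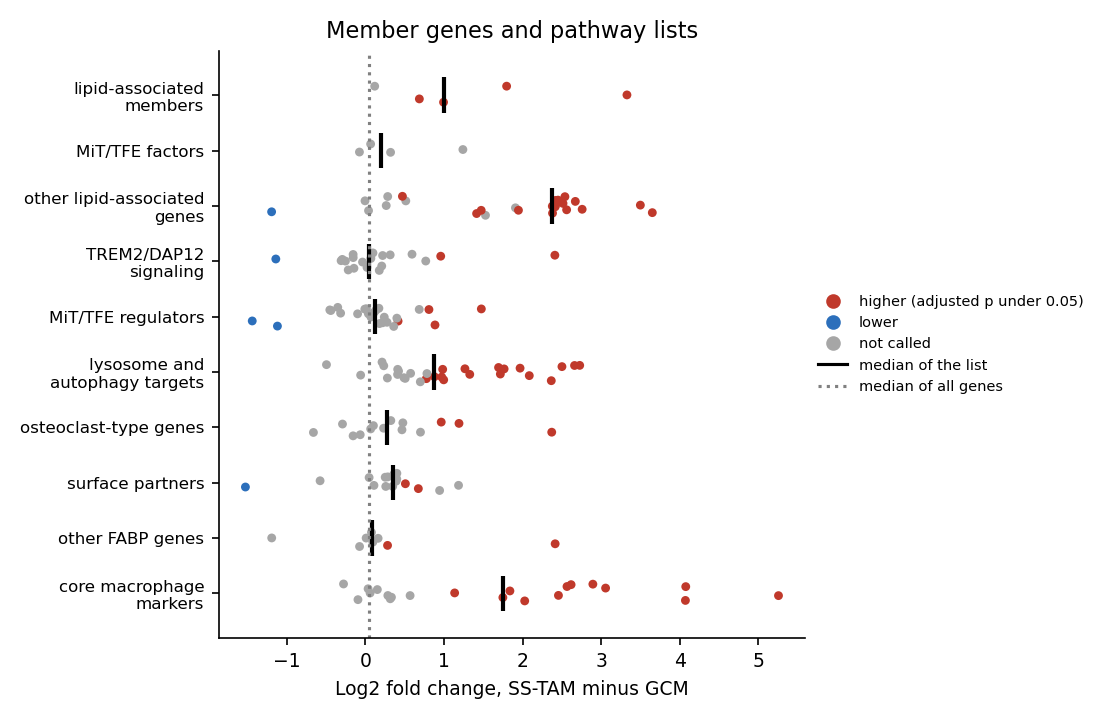
Log2 differences (SS-TAM minus GCM) for measured members, 7 pathway lists and the core macrophage markers; each point is 1 gene, colored by its call at an adjusted p under 0.05, black bars are list medians and the dotted line is the median of all genes (0.04). With the arrays as deposited, other lipid-associated genes (median 2.38) and lysosome targets (0.88) lay mostly to the right of that line, whereas the median of the MiT/TFE factors was 0.19; scaled to the core macrophage markers, 6 of 9 members were called lower.

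Of 14 genes of osteoclasts, in which MITF and TFE3 are known regulators, 3 rose and none fell (median log2 difference 0.28). Over all genes, 5.16% were called higher and 4.74% lower. Ctsk, the collagen-degrading cathepsin K, was at 45.9, 11.5 and 32.1 in SS-TAMs and 4.7, 5.2 and 5 in GCMs, which is near the median, so its ratio depends on a level at the low end of the scale. Its log2 difference of 2.37 lost the call without SS-TAM replicate 1 or 3 or any 1 GCM array (adjusted p = 0.076 to 0.13). Tcirg1 and Ostm1, which serve proton and chloride transport, rose by 1.19 and 0.97, and Ostm1 lost its call without GCM replicate 2 or 3 (adjusted p = 0.060 and 0.056). The GCM mean of Ostm1, 7.13, was near the median. The classic marker Acp5 lay the other way, at 45.3, 28.8 and 25.7 in SS-TAMs and 50.4, 43.6 and 60.3 in GCMs, and did not pass the test (log2 difference -0.66, adjusted p = 0.15). The count of osteoclast-type genes called higher was 5 without SS-TAM replicate 1 and 1 without GCM replicate 2 or 3.

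Surface genes that partner with osteopontin, GPNMB or CD9 gave 2 higher and 1 lower of 16 measured (median log2 difference 0.35). The shares of all genes were 5.16% higher and 4.74% lower, and these few calls are not read as a trait of the list. Itgb5, an integrin subunit, and Sdc4, a heparan sulfate proteoglycan, rose by 0.67 and 0.51, with no call for either without SS-TAM replicate 3 or any 1 GCM array (adjusted p = 0.052 to 0.12), nor for Itgb5 without SS-TAM replicate 1 (adjusted p = 0.055). The GCM mean of Itgb5, 5.6, was near the median. Itga4, an integrin subunit also abundant on lymphocytes, fell by 1.53 on the log2 scale beside the lower T cell markers given above. The osteopontin receptors Cd44 and Itgb3 had log2 differences of 0.11 and 0.07 (adjusted p = 0.41 and 0.50).

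Among the 8 other fatty acid-binding protein genes, Fabp4, the form of fat cells and macrophages, rose further than Fabp5 on the log2 scale. It was at 116, 123 and 115 in SS-TAMs and at 28.3, 20 and 19 in GCMs (log2 difference 2.42, adjusted p = 0.0014 from limma), and the difference between the 2 genes was not tested. Fabp6 was called at 0.28 with both groups near the median (3.9 to 5.1), and not without SS-TAM replicate 1 or any 1 GCM array (adjusted p = 0.052 to 0.13). The other 6 were not called. Of 4 fat cell markers 1 was higher (Cidec, near the median in both groups) and none was lower. Their sums were 30.2 to 49.9 in SS-TAMs and 27.7 to 37.3 in GCMs, and the part of fat cells in the level of Fabp4 was not tested.

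The direction of several members depended on what was held equal between the arrays. Centering each array on its median left the 4 calls in place, and so did quantile normalization, which gave Tyrobp and Fabp5 log2 differences of 1.99 and 1.42. When arrays were instead scaled to the mean log2 intensity of 19 core macrophage markers, which were 1.63 higher in SS-TAMs, the median of all genes moved to -1.59. On that scale Gpnmb was still called higher at 1.70, Trem2 was at 0.17 (adjusted p = 0.31) and Tyrobp and Fabp5 were lower at -0.63 and -0.94. Relative to the median of all genes on that scale, the values were 3.29 for Gpnmb, 1.76 for Trem2, 0.95 for Tyrobp and 0.65 for Fabp5. Gpnmb thus rose more than the mean of these markers, and Tyrobp and Fabp5 rose less. That mean covers markers from -0.28 (Marco) to 5.26 (Mrc1). Mrc1, Msr1 (4.08) and Mertk (2.90) were also picked from these arrays by the study. The scale is therefore not an independent yardstick.

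**Figure D5:**
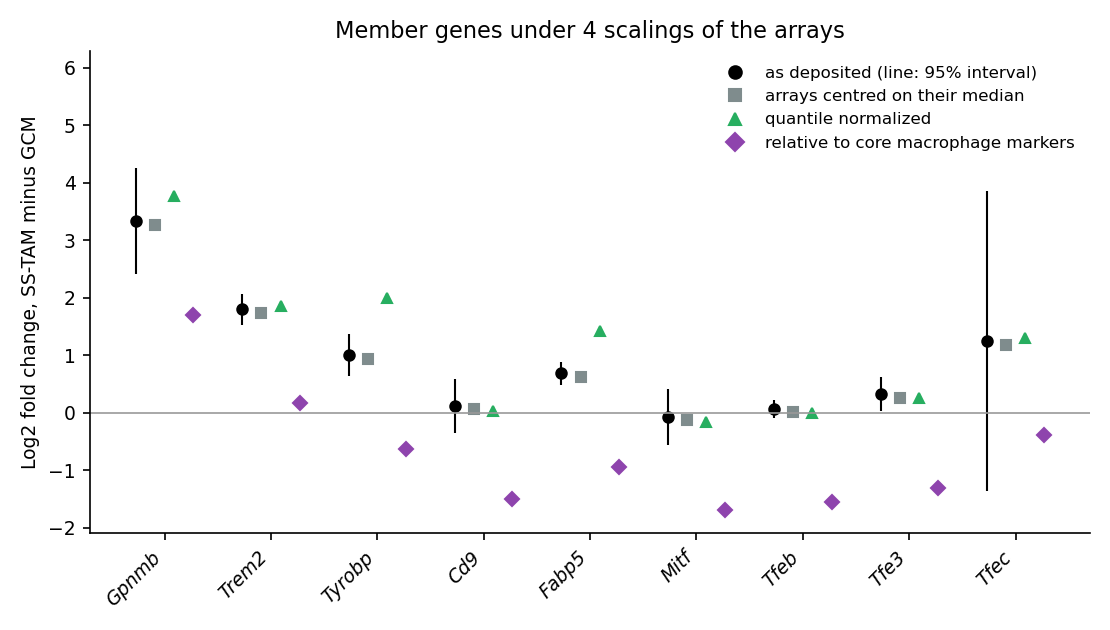
Log2 difference (SS-TAM minus GCM) for each of 9 members under 4 scalings of the arrays; each symbol is 1 scaling over 3 against 3 arrays, and vertical lines are 95% intervals of the values as deposited. Scaled to the core macrophage markers, Gpnmb stayed at 1.70, Trem2 fell to 0.17, and Tyrobp and Fabp5 changed sign to -0.63 and -0.94, and the other 5 members lay below 0.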

How the data were processed

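The authors deposited array intensities on a linear scale with 1 decimal (2.4 to 2544), for Affymetrix Mouse Gene 1.0 arrays hybridized with RNA amplified from 1000 captured cells. Per the labels their processing used RMA and limma, their versions and the genome build being not given in the sources used here. Because the planned design took the values for log2, they were log2-transformed first. Gene names came from the platform annotation: 21789 name 1 gene, 1621 several and 5534 are unnamed here, and 21698 matched RefSeq by gene ID. The brightest probe set stood for each of 999 genes with several. Groups (3 against 3, no covariate) were compared in R 4.3.3 using limma 3.58.1 (eBayes after lmFit, two-sided, Benjamini-Hochberg over 19938 genes, threshold 0.05), and the procedure was tested on simulated data. An exact permutation test of 3 against 3 cannot go below p = 0.1, and the number of arrays limits precision. Over genes, which are not independent, the median correlation was 0.962 within SS-TAM, 0.984 within GCM and 0.902 between groups.

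Members and gene lists were chosen with earlier results of these data known. Named genes are all members, up to 4 called genes per list in each direction, and Hcst, Syk, Plcg2, Flcn, Rragd, Mcoln1, Cd44, Itgb3, Apoe and Lpl, and, by profile, 3 genes most like Gpnmb and Trem2. Other genes, including Jag1, Siglec1, Ifit3, Lum, Map1lc3b, Sqstm1, Lamp1, Acp5, Itgax, Plin2, Cd36, Abca1 and Lgals3, were named after their values were seen. Promoters were searched in Python 3.11.15 with RefSeq sequences (GRCm38.p6). Some genes of the lists are not reported here. Alternatives changed the scaling, the variance model, dim genes, probe sets, a pseudocount of 10, a replicate block, weights of arrays and each array in turn.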

Additional observations from a re-analysis of the deposited data

How the results depend on the processing

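Of the 9 alternatives that kept all arrays, 8 left the members at 4 higher and 0 lower, and among the 41 named genes turned only the sign of Mitf, from -0.075 to 0.0099 with the mean of its probe sets. Scaling to the core macrophage markers, which moves the median of all genes to -1.59, gave 1 member higher and 6 lower. Of the other lipid-associated genes, 13 were still called higher on that scale and 7 were lower. Lower there were 19 of the TREM2 and DAP12 genes, 25 regulators, 19 lysosome targets, 13 osteoclast-type genes, 15 surface partners and 7 fatty acid-binding genes. The scaling gave 1, 0, 5, 1, 0 and 1 higher in these 6 lists, in that order. It turned the sign of 21 log2 differences: Tyrobp -0.63, Cd9 -1.51, Fabp5 -0.94, Tfeb -1.56, Tfe3 -1.31, Tfec -0.39, Apoe -0.10, Grb2 -0.67, Mcoln1 -0.15, Fnip1 -0.74, Fnip2 -0.82, Rragd -1.21, Tcirg1 -0.44, Ostm1 -0.66, Itgb5 -0.95, Sdc4 -1.12, Fabp6 -1.35, Syk -1.03, Flcn -1.41, Cd44 -1.52 and Itgb3 -1.56. These are the result of subtracting a mean rise of 1.63 in the markers.

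Under other settings TREM2 and DAP12 genes called lower were 2 (median centring, pseudocount) or 0 (quantile normalization, array weights), osteoclast-type genes called lower 1 (median centring, quantile normalization), surface partners called higher 4 (quantile normalization) or 1 (pseudocount), and fatty acid-binding genes called higher 1 (median centring, dim genes left out, pseudocount, array weights). The cause was not tested.

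Same-numbered animals of the 2 groups share only a number (correlations of their deviations 0.09, 0.09 and 0.02). With the replicate block the members stayed at 4 higher, 611 genes of all were higher and 708 lower, and TREM2 and DAP12 genes and fatty acid-binding genes called higher were 1 each.

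Leaving out 1 array gave 3 to 4 members higher and 0 lower. Log2 differences of uncalled genes turned sign there in Cd9 (-0.075 to 0.27), Mitf (-0.25 to 0.15), Tfec (-0.047 to 1.89) and Plcg2 (-0.52 to 0.00060). The ranges, higher and then lower, were 13 to 17 and 1 for other lipid-associated genes, 1 to 2 and 0 to 2 for TREM2 and DAP12 genes, 2 to 4 and 1 to 2 for regulators, 10 to 16 and 0 to 1 for lysosome targets, 1 to 5 and 0 to 1 for osteoclast-type genes, 0 to 3 and 1 for surface partners, and 1 to 2 and 0 to 1 for fatty acid-binding genes. Without GCM replicate 1, 2 or 3, 348, 271 and 303 genes were higher and 499, 399 and 433 lower, against 1028 and 946 with all arrays. Without detection calls, no gene near the array median can be called absent.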
